A study of Homo sapiens with 2 samples.

Results

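The 7 genes described here encode surface proteins through which B cells engage T cells: CD80, CD86, CD40, CD70, CD58, ICAM1 and CD83. Open chromatin around them was mapped in GM12878, an established lymphoblastoid cell line of human B lymphocytes that carries Epstein-Barr virus as its transforming agent. ATAC-seq was used, which relies on a transposase that inserts sequencing tags where DNA is open. Untreated cells of 2 cultures gave 1 library each, from 50000 cells per culture, and both libraries form 1 group. The authors deposited 1 list of accessible regions for both cultures, with a score for each region and no value per culture. The depth is therefore unknown and no error between cultures can be given. A region belonged to a gene when its midpoint lay inside the gene span or at most 50 kb from it, with spans and regions in hg19. Of the 23612 regions of the list, 27 met this rule, and none of them belonged to more than 1 gene.

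T cells need a costimulatory signal beside the antigen receptor. CD80 and CD86 are the B7 ligands that bind CD28, which activates T cells, and CTLA4, which restrains them. CD40 is the tumour necrosis factor receptor family member by which helper T cells license B cells. CD70 is a ligand of the tumour necrosis factor superfamily that engages CD27. CD58 binds CD2 and ICAM1 binds the integrin LFA-1, so that both hold the contact between the cells together. CD83 is an immunoglobulin superfamily protein of mature dendritic cells and activated B cells. In lymphoblastoid lines the viral protein LMP1 is known to mimic an active CD40 receptor and to signal through NF-kB, and such lines are known to carry several of these proteins on their surface.

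The regions fell unevenly over the 7 genes. A region lay over the start of CD80, CD86 and CD58, and none lay within 5 kb of the start of CD83, ICAM1, CD70 or CD40. The start is the first base of the gene span in the direction of the gene. The windows of CD80, CD86 and CD58 held 8, 7 and 6 regions, and those of ICAM1, CD83, CD70 and CD40 held 3, 2, 1 and 0. The 3 windows with a region over the start therefore held 21 of the 27 regions. Tiles of each window's length, laid end to end along chromosomes 1 to 22 and X, give the background of these counts. At least 8 regions, as around CD80, lay in 0.749% of 22417 such tiles. The count of CD86 was reached in 2.13% of tiles of its length and that of CD58 in 3.18%, so the counts of these 3 genes were high for their length. The count of ICAM1 was reached in 11.6% of tiles, that of CD83 in 23.4% and that of CD70 in 41.2%. For CD40, 57.5% of tiles also held 0 regions, so an empty window was the most frequent case.

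The bases before the start are shown for genes with and without a region over the start, because the regions over the starts differ in width and the sequences differ in base composition. They come from the RefSeq promoter table of GRCh38.p14, a later build than that of the regions, and its starts were not carried over to hg19. Each line gives the 250 bases before the start in that table, 5′ to 3′ in the direction of the gene. Capitals mark matches to the motifs described further on, which are placed by the same starts. A region of the list lay over the hg19 start of the first 3 genes, and none lay near that of the other two.
CD58: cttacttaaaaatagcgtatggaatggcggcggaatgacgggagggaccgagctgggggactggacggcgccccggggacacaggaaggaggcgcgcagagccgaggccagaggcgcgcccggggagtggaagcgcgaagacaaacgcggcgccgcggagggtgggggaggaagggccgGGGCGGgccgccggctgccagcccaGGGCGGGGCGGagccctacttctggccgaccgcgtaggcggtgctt
CD80: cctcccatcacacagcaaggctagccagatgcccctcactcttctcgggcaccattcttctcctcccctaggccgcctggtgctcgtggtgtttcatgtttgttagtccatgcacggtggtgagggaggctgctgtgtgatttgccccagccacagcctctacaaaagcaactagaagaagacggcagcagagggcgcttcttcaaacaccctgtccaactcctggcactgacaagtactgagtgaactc
CD86: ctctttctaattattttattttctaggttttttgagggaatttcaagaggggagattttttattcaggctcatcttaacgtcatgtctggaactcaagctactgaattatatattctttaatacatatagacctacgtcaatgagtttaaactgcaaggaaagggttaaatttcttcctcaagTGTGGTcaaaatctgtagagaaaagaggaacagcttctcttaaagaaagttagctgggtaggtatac
ICAM1: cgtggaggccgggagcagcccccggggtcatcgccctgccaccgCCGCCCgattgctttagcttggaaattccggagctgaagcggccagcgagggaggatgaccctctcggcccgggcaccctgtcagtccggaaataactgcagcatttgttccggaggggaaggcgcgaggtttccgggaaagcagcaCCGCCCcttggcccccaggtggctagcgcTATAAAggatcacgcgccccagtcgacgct
CD83: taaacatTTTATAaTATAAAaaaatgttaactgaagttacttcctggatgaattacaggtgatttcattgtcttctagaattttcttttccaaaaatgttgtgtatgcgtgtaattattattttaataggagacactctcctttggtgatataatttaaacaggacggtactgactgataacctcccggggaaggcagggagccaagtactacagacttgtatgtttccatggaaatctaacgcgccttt
In GRCh38.p14 these sequences lie at chr1:116571027-116571276 on the minus strand for CD58, chr3:119559615-119559864 on the minus strand for CD80, chr3:122055112-122055361 on the plus strand for CD86, chr19:10270870-10271119 on the plus strand for ICAM1 and chr6:14117006-14117255 on the plus strand for CD83. The table lists 2 starts for CD86 and 2 for CD83. The outer start of each, at the 5′ end of the gene, is the one shown, and the inner one lies within the gene.

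CD80, the B7 ligand found on activated B cells, had most regions of the 7 genes. Its span lies on the minus strand of chromosome 3 (119243140 to 119278514, band 3q13.33). The region over its start was 1279 bp wide (119278173 to 119279451) and reached from 937 bp before the start to 341 bp after it. It scored 1000, the highest score, which 60.1% of all regions share. Of the 8 regions in the window, 6 were at this score and 5 lay before the start.

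The regions before the start of CD80 stood in pairs. A region of 816 bp lay 2.66 kb before the start, with 1.72 kb between it and the region over the start. Regions of 1175 bp and 649 bp followed at 19.8 and 22.4 kb before the start, with 1.42 kb between them. Regions of 1460 bp and 1084 bp lay at 38.0 and 40.8 kb before it, with 1.29 kb between them. In each of the 2 farther pairs, 1 region was at the highest score and 1 was below it, at 542 in the nearer pair and at 788 in the farther one. The score of 542 was close to the lowest in the list, 541.

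Within the span of CD80 a single region was listed, 1089 bp wide and 8.57 kb after the start (119268853 to 119269941). The last region of the window, 1137 bp wide, lay past the end of the gene, 60.5 kb from the start. Both were at the highest score. The protein-coding genes next to CD80 in the order of GRCh38 are ADPRH on the side of the start and TIMMDC1 on the other. Regions outside the span may lie over these neighbours, and no region was assigned to them. The same holds for regions outside the spans of the other genes.

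CD86 encodes the other B7 ligand, and its span lies on the plus strand of the same band (121774213 to 121839983), 2.5 Mb from CD80. Its start region was the narrowest of the 3, with 520 bp (121774023 to 121774542), from 190 bp before to 329 bp after the start. It scored 999, just below the highest score, so CD86 has no start region when the list is restricted to the highest score. Of the regions in the whole list, 78.9% were at least as wide. The accessible stretch at the start of CD86 was thus small beside that of CD80.

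The wider regions of CD86 lay away from its outer start. Within the span, regions of 833 and 1201 bp lay 19.1 and 21.5 kb after the start, with 1.55 kb between them, and a region of 1362 bp lay 46.1 kb after it. These scored 1000, 931 and 1000. Before the start, regions of 1151, 530 and 498 bp lay at 23.9, 29.6 and 40.2 kb, with scores of 1000, 837 and 1000. The window held none past the end of the gene, on the side of CASR, while ILDR1 is the neighbour on the side of the start. In the GRCh38.p14 table the inner start of CD86 lies 22422 bp after the outer one, and in hg19 the region of 1201 bp spans 21527 to 22727 bp after the start of the span. The region thus takes in the distance at which the table sets the inner start, although positions were not converted between the builds.

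CD58, the adhesion ligand of CD2, had the widest region of the 27. Its span lies on the minus strand of chromosome 1 (117057156 to 117113715, band 1p13.1). The region over the start was 2370 bp wide (117112198 to 117114567) and scored 1000. It reached from 852 bp before the start to 1517 bp after it. Only 1.44% of the regions of the list were at least as wide, against 16.2% for the start region of CD80. More of it lay after the start than before, whereas the start region of CD80 lay mostly before.

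No other region of CD58 lay before the start, where the next one was 57.4 kb away and outside the window. Within the span, regions of 558, 922 and 557 bp lay 14.1, 25.7 and 30.4 kb after the start and scored 1000, 771 and 783. A region of 755 bp lay 55.4 kb after the start (117057522 to 117058276), inside the last stretch of the span, and 1 of 617 bp lay 66.2 kb after it. Both scored 1000. CD58 thus had 4 regions inside its span beside the one over its start, against 3 for CD86 and 1 for CD80, while its window held 0 before the start against 3 for CD86 and 5 for CD80.

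**Figure D1:**
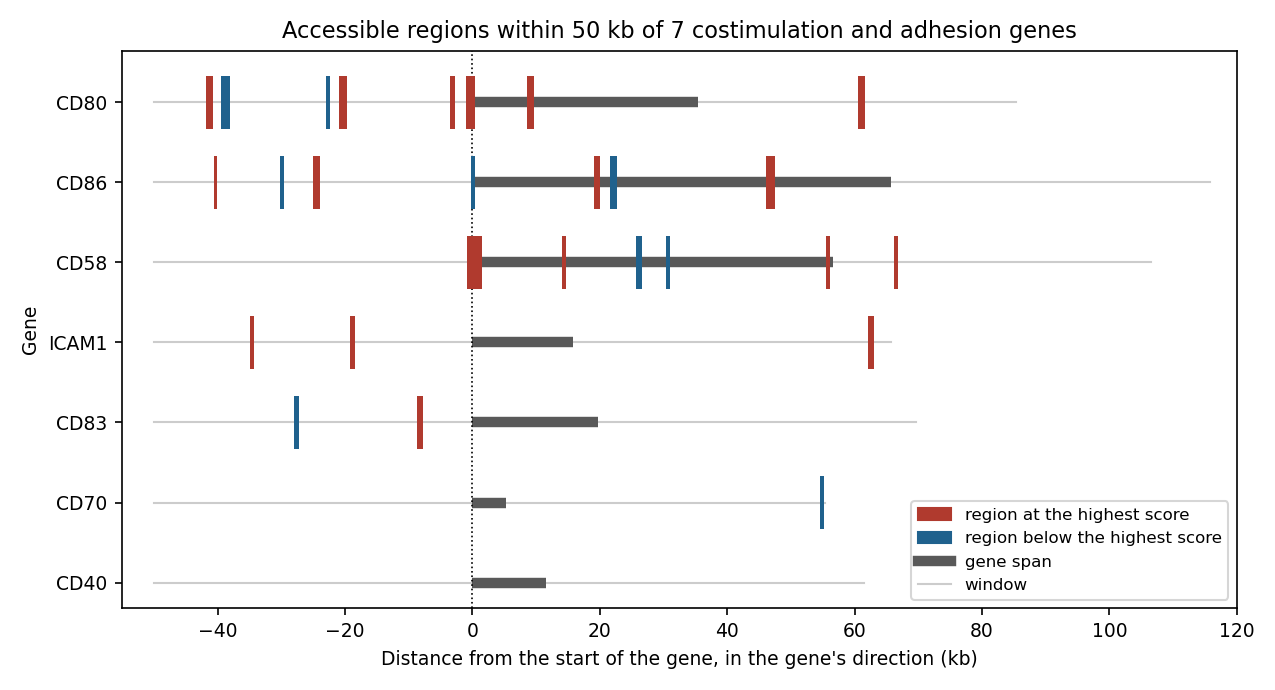
Regions by distance from the start of each gene, in kb and in the direction of the gene, drawn to scale; red bars are at the highest score, blue bars below it, thick grey lines are gene spans and thin lines the windows. Bars cross the dotted start line for CD80, CD86 and CD58, and the rows of ICAM1, CD83, CD70 and CD40 hold 3, 2, 1 and 0 bars.

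ICAM1, the ligand of LFA-1 and a well known target of NF-kB, had 3 regions, none of them inside or over the gene. Its span lies on the plus strand of chromosome 19 (10381517 to 10397291, band 19p13.2). Regions of 713 and 581 bp lay 18.5 and 34.3 kb before the start, and 1 of 975 bp lay 62.1 kb after it, past the end of the gene. All 3 scored 1000. Between the regions on either side of the start, 80.6 kb held no region. MRPL4 is the neighbouring protein-coding gene on the side of the start and ICAM4, a gene of the same family, the one past the end. All 3 regions may lie over neighbouring genes rather than belong to ICAM1, and none was assigned to a neighbour.

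CD83 had 2 regions, both before the start. Its span lies on the plus strand of chromosome 6 (14117487 to 14137146, band 6p23). The nearer region was 935 bp wide, scored 1000 and lay 7.73 kb before the start (14108827 to 14109761). The farther was 793 bp wide, scored 684 and lay 27.3 kb before it. After the start the next region was 93.6 kb away, outside the window. Of the 4 genes with no region over the start, CD83 had the region nearest to it.

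CD70 had 1 region, and it was near the edge of its window. The span lies on the minus strand of chromosome 19 (6585850 to 6591163, band 19p13.3), 3.79 Mb from ICAM1. The region was 611 bp wide, scored 815 and lay 54.6 kb after the start (6535967 to 6536577). It was the region closest to the limit of the rule, with its midpoint 49.58 kb from the span. Just outside the limit lay a region of 1657 bp at 1000 near CD80, with its midpoint 55.06 kb from that span. TNFSF9, which encodes another costimulatory ligand of the tumour necrosis factor superfamily, is the neighbour of CD70 on this side, and the region was not assigned to it. Before the start of CD70 no region was listed for 145.4 kb.

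CD40, the receptor of the CD40 ligand of helper T cells, had no region in its window. Its span lies on the plus strand of chromosome 20 (44746906 to 44758384, band 20q13.12). The nearest region lay 182.4 kb before the start (44562809 to 44564527, score 841), and the next after it lay 287.8 kb away (45034656 to 45036139, score 1000). The interval without a region was 470.1 kb long. No region number was skipped across any of the 7 windows, so the numbering shows no region removed there after numbering. Regions filtered out before numbering would leave no such trace, so the numbers cannot tell whether filtering touched these windows. The depth is unknown, so a start without a listed region is not read as closed chromatin.

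The distances to the nearest region can be set beside those of all bases. In chromosomes 1 to 22 and X, 0.682% of bases lay inside a region, as the starts of CD80, CD86 and CD58 did. The start of CD83 lay as near to a region as the nearest 10.5% of bases, that of ICAM1 as the nearest 20.9%, that of CD70 as the nearest 42.2% and that of CD40 as the nearest 70.6%. Most bases were thus closer to a region than the start of CD40. Bases are not gene starts, and the starts of other genes in hg19 were not analysed here.

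**Figure D2:**
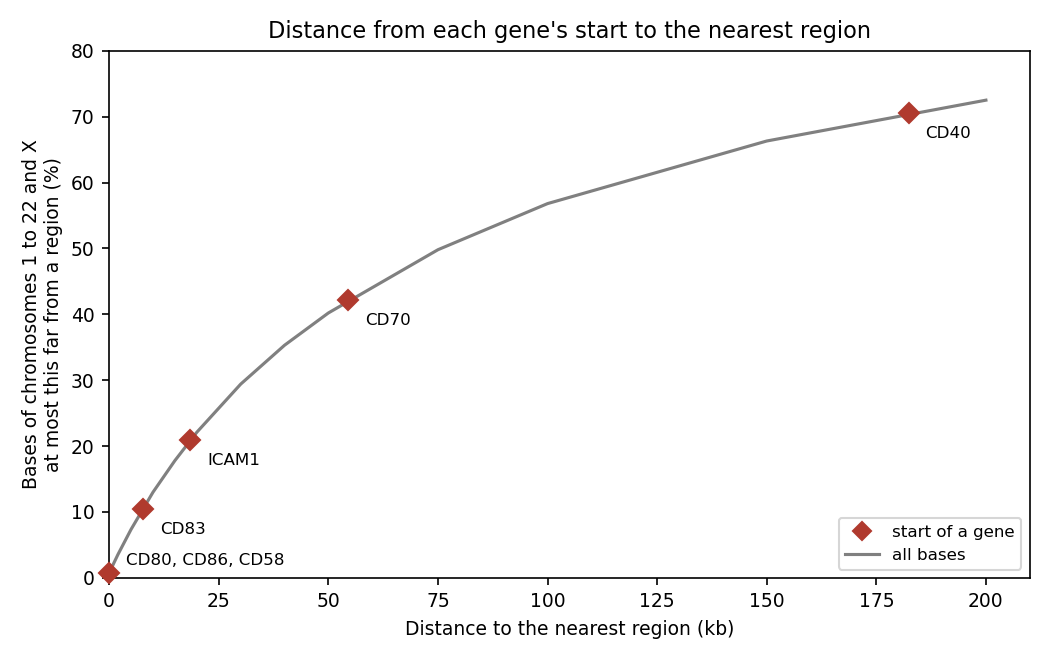
Distance from the start of each gene to the nearest region, in kb, against the percentage of bases of chromosomes 1 to 22 and X that lie at most this far from a region (grey line). The diamonds run from 0 kb for CD80, CD86 and CD58 to 182.4 kb for CD40.

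Of the 7 genes, 6 had more regions than the average of chromosomes 1 to 22 and X gives for a window of their length. These averages are low, from 0.813 regions for CD70 to 1.28 for CD86, and a single region exceeds those of ICAM1, CD83 and CD70. Of tiles of these 3 lengths, 56.5%, 55.7% and 58.8% held no region, and all others also exceeded the average. The 7 windows together held 29.7 regions per Mb, against 7.72 over these chromosomes, a 3.84-fold difference. By gene the density was 7.65 times that of the chromosomes for CD80, 5.47 times for CD86, 4.96 times for CD58, 3.36 times for ICAM1, 2.16 times for CD83 and 1.23 times for CD70. Set against the density of their own chromosomes, the windows of CD80, CD86 and CD58 lay at 6.67, 4.76 and 4.89 times, and that of CD70 at 1.07 times. The density is a description, since the genes were chosen with earlier results of these data known and gene-rich stretches were not matched.

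**Figure D3:**
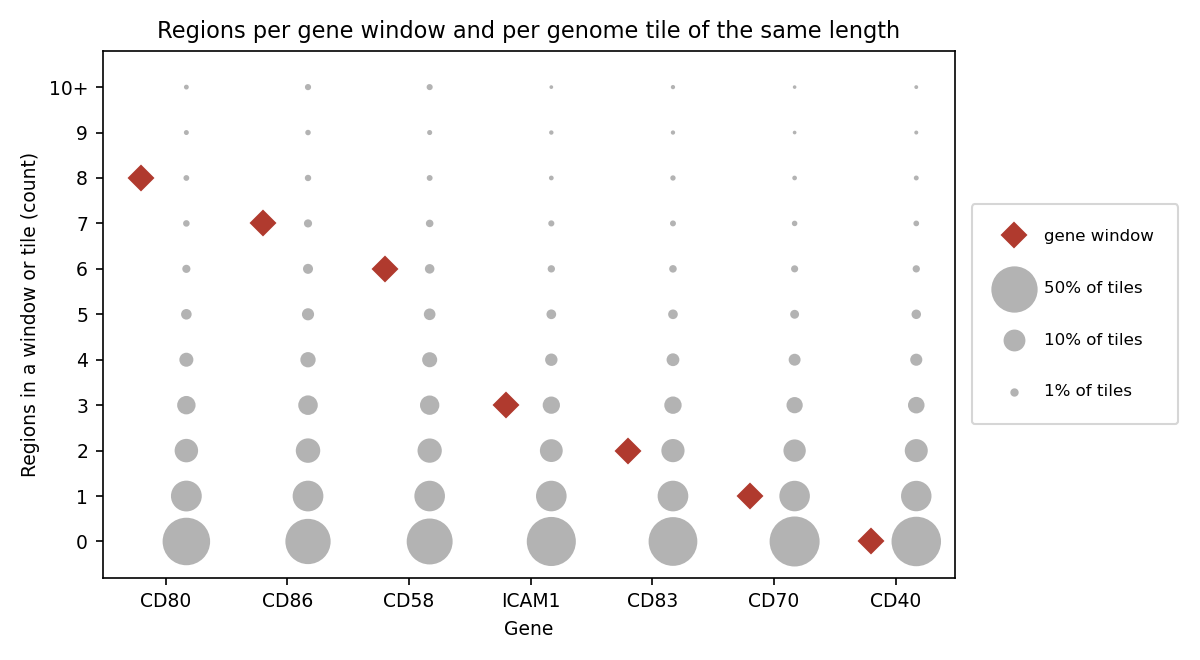
Number of regions in each gene window (red diamonds) and in genome tiles of the same length (grey circles, with area in proportion to the percentage of tiles; the top row takes in 10 or more). The diamonds fall from 8 for CD80 to 0 for CD40, and most tiles lie at 0 or 1.

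The cytogenetic bands of the genes also differed. Band 3q13.33, a dark Giemsa band that holds both B7 genes, had 19.0 regions per Mb, against 59.1 in the window of CD80 and 42.2 in that of CD86. Band 1p13.1 had 14.1 per Mb and the window of CD58 38.3. The bands of ICAM1, CD70 and CD83 had 9.57, 8.99 and 7.78 per Mb, and that of CD40 had 5.81. The windows of CD80 and CD86 were denser than a band that was itself dense, and 15 of its 55 regions lay in these 2 windows.

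The width and score of the 27 regions were close to those of the whole list. The median width was 833 bp, with an order-statistic 95% interval over regions of 617 to 1137 bp, against 756 bp in the list. At the highest score were 18 of the 27 regions, or 66.7% (exact binomial 95% interval 46.0% to 83.5%), against 60.1% of the list. These intervals cover counting over regions only and not variation between cultures. Regions at the highest score had a median width of 955 bp and those below it 649 bp, against 953 and 556 bp in the list. Over 1000 bp were 10 of the 27 regions, or 37.0%, against 29.7% of the list. Of the 8 regions of CD80, with a median of 1113 bp, 6 were over 1000 bp. The other windows together held 4 regions over 1000 bp, of which 3 belonged to CD86 and 1 to CD58.

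**Figure D4:**
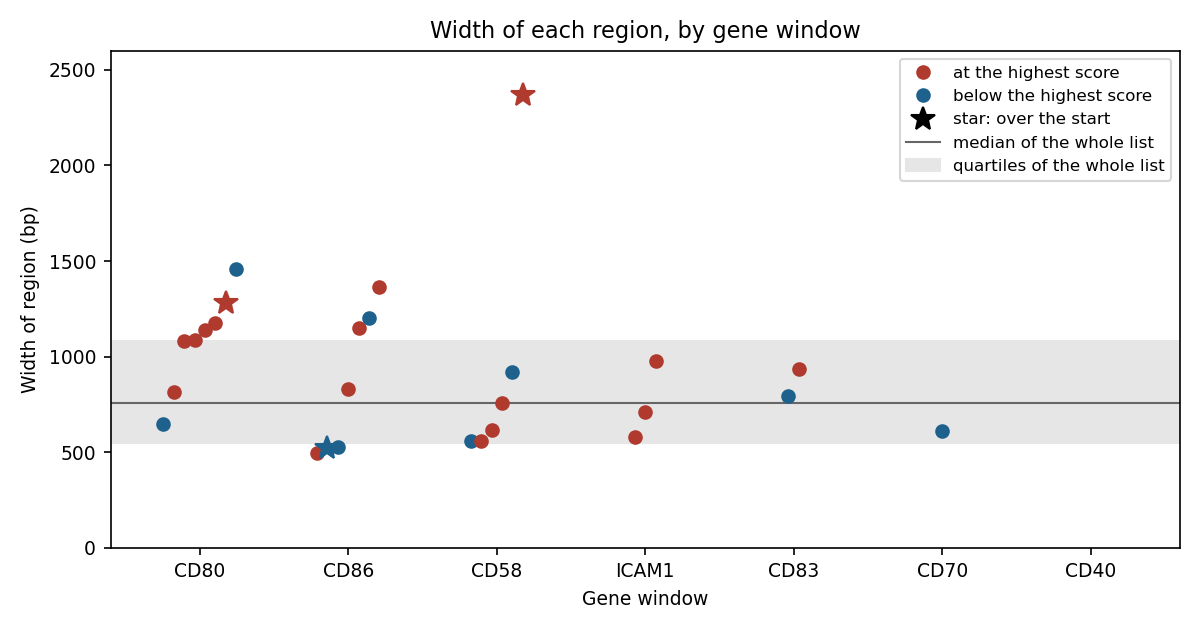
Width in bp of each of the 27 regions by gene window, in red at the highest score and in blue below it; stars mark regions over a start, and the line and grey band give the median and quartiles of the whole list. The start regions of CD58, CD80 and CD86 stand at 2370, 1279 and 520 bp, and the column of CD40 is empty.

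By place, 12 of the 27 regions lay before the start, 3 over it, 8 within the span and 4 past the end. Regions within the spans had a median width of 877.5 bp, those before the starts 804.5 bp and those past the ends 796 bp. The 3 regions over the starts were 520, 1279 and 2370 bp wide. Their median, 1279 bp, is the width of the CD80 region alone and does not show that start regions were wider. A region edge lay within 5 kb of the start for 4 of the 27 and within 30 kb for 16. Most of the regions thus lay more than 5 kb from the starts, but so do most bases of windows with a flank of 50 kb. The counts by place and distance were not set beside the share of window bases there, so they show no preference.

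Joining regions at most 12500 bp apart gave 3 clusters of 3 regions, 1 for each of CD80, CD86 and CD58, and these held 9 of the 27 regions, or 33.3%. Of the whole list, 18.9% of regions stood in clusters of 3 or more. The cluster of CD80 was 13.1 kb long and took in the region over the start (119268853 to 119281991), with all 3 regions at the highest score. That of CD86 was 16.7 kb long and lay before the start (121733565 to 121750308). That of CD58 was 16.9 kb long and lay within the span (117082760 to 117099640), separated by 12557 bp, just over the joining distance, from the region over the start. With joining at 25 kb the 3 clusters held 20 of the 27 regions, or 74.1%, against 33.6% of the whole list. Each then took in the region over its start. With joining at 5 kb the order was reversed, with 0 of the 27 regions in such clusters against 7.83% of the whole list. At 12500 bp a further 8 regions stood in pairs, and 10 stood alone, or 37.0% against 57.8% of the whole list. Among these 10 were all regions of ICAM1, CD83 and CD70.

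The promoters differed in base composition along with the width of the start regions. The 250 bases shown above held 72.0% G and C with 31 CpGs for CD58, 56.0% with 6 CpGs for CD80 and 34.0% with 2 CpGs for CD86. The start regions of these genes were 2370, 1279 and 520 bp wide. With 3 genes this order is a description only, and it did not extend to the genes with no start region. ICAM1 held 66.0% G and C with 23 CpGs and the outer promoter of CD83 34.8% with 5. Of the inner promoters, not shown, that of CD83 held 83.2% with 46 CpGs and that of CD86 52.0% with 4. The median over the 35116 promoters of the table was 58.0%, with 11 CpGs.

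The promoters were searched on both strands for 13 motifs. The GC box, GGGCGG, bound by SP1-like factors, had 3 matches for CD58, 2 for ICAM1 on the opposite strand and 5 for the inner promoter of CD83, and 42.6% of all promoters hold it. The last pair of matches in CD58 overlap by 1 base. TATAAA, the TATA box, ended 25 bases before the start of ICAM1 and also lay between 243 and 231 bases before the outer start of CD83, once on each strand, and 10.7% of all promoters hold it. TGTGGT, the core bound by RUNX factors, lay 62 to 67 bases before the outer start of CD86 (11.0% of all promoters).

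The kappaB consensus, the site type of NF-kB, had overlapping matches in 1 stretch of the inner promoter of CD83, from 76 to 65 bases before the start, and in 1 stretch of the inner promoter of CD86, from 82 to 72 bases before it. It occurs in 5.21% of all promoters. The consensus searched begins with GGG on either strand, so variants of the site with other letters there were not searched for. No match to the other 9 motifs was found in the 7 promoters searched. These were TGANTCA of AP-1 (6.57% of all promoters), CCAAT (32.0%), CACGTG of the E box (6.34%), and, by name alone, the classical kappaB sequence (0.179%), the interferon-stimulated response element (3.02%), the cyclic AMP response element (1.65%) and the sites of PU.1 (0.339%), EBF (1.06%) and the octamer factors (1.63%). A match to these letters is not a bound site, and a missing match says only that the letters are absent from these 250 bases.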

How the data were processed

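Accessible chromatin was measured by ATAC-seq in 2 cultures of GM12878, which the labels put in 1 group. What the authors deposited is a joint list for both cultures, with a score per region whose scale neither a header nor a label names. The build is hg19, and the tools are MACS2 2.1.0, BWA 0.7.13, Trim Galore 0.3.3, bedtools 2.24.0, SAMtools 0.1.19, Picard 1.92 and CASAVA 1.8.4, per the submitters' processing notes, which give no roles. The name of the deposited list carries the terms idr, Mapp, Mito and Black. They point to a reproducibility cut between cultures and to filters for mappability, mitochondrial and blacklisted sequence. How these steps were done, how peaks were called and whether reads were shifted for the transposase are not given in the sources used here. A stricter threshold or lower depth lowers the number of regions listed.

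Regions were assigned to the 7 genes by midpoint, with a flank of 50 kb and gene spans in hg19. The genes, motifs and tests were chosen with earlier results of these data known. The genes were named by membership. Named regions were all those in windows of at most 8 regions, which took in every window. There was 1 group and no value per culture, so nothing was tested. Band and chromosome lengths of hg19 came from circlize 0.4.16. Calculations used Python 3.11.15, numpy 2.4.6, pandas 2.3.3, scipy 1.17.1 and matplotlib 3.10.9, and the counting steps were tested on simulated data.

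The RefSeq gene and promoter tables are of GRCh38.p14. They gave sequences and the order of genes, and their positions were not converted to hg19. Promoters matched 5 of the 7 genes, all but CD40 and CD70. Gene lengths in the table differ from the spans used here by 3 to 279 bp for these 5, so the starts need not be identical. A list of other costimulation genes and a check of the cell type by marker genes need genes of hg19 and were not analysed here. The alternatives tried were other flanks, any overlap, the highest score only, other backgrounds, other distances for starts and joining, and a longer promoter.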

Additional observations from a re-analysis of the deposited data

How the results depend on the processing

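Most values changed by at most 1.5 times under the alternatives. The count of 27 regions was 18 with a flank of 25 kb, 38 with 100 kb, 27 when any overlap counted and 18 at the highest score. The density relative to chromosomes 1 to 22 and X, 3.84-fold, ran from 3.06 with a flank of 100 kb to 4.27 at the highest score. Leaving out 1 window in turn, chosen after seeing the data, gave 3.18-fold without CD80 to 4.38-fold without CD40. The number of genes with a region over the start stayed at 3 when regions within 1 or 5 kb counted and was 2 at the highest score. The median width ran from 833 to 955 bp and the share at the highest score from 63.2% to 72.2%. The 3 clusters depended on the settings: 0 were left with joining at 5 kb and 1 at the highest score, and joining at 25 kb gave 3 larger ones. The 9 regions in clusters became 0, 3 and 20 under these settings, a count added after seeing the data. At 5 kb this was 0.0% of the regions around the genes against 7.83% of the whole list. At the highest score it was 16.7% against 10.3%. The motif search gave 8 pairs of a motif and a promoter, and 9 with the bases after the start. No paired analysis was possible because both cultures share 1 list, and leaving out a culture could not be tried for the same reason. The depth is unknown, so a start without a region may lie below the authors' threshold or may have lost a region to their filters.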
